A study of Mus musculus with 3 samples.

Results

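Macrophages, mast cells and neutrophils are blood-derived cells that can be carried along when digits of the mouse embryo are dissociated and sorted, and 37 genes used as their markers were read in the 3 libraries of this series. The genes were chosen by symbol, as 24 macrophage genes, 7 mast cell genes and 6 neutrophil genes. Of these, 36 symbols were among the 23284 that each file lists. Spi1 was absent under that symbol and was left out of every count. The files list it as Sfpi1, an older name that RefSeq's synonyms pair with Spi1, and its values are given beside the macrophage genes.

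RNA-seq had been run on 3 populations sorted by GFP, with 1 library each. Lgr5+ cells, called interzone in the labels, came from forelimb digits of Lgr5-eGFPCreERT2/+ embryos at embryonic day E14.5. The Lgr5− library held GFP-negative forelimb digit cells of the same genotype and day, called non-interzone. Sox9+ cells came from digits of Sox9-eGFP/+ embryos at E13.5, with no limb named. The strain is given as C57/bl6 for all 3 groups. GFP in these lines is driven by the Lgr5 and Sox9 genes, and the labels name no blood cell marker in any gate. The labels do not give the number of embryos behind each library. No group had a replicate, so there is no error, no test and no p-value for any value below, and a difference is between libraries, not between conditions.

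Macrophages colonise the embryonic limb early, take up dying cells between the digits and depend on the receptor Csf1r. Mast cells store proteases and histamine in granules and depend on the receptor Kit, and neutrophils carry antimicrobial proteins such as the S100a8 and S100a9 pair. The C1q complex that macrophages secrete is built from C1qa, C1qb and C1qc chains, which tag dying cells and immune complexes for uptake. PU.1, the product of Spi1, is a transcription factor that many genes of myeloid cells require, while GATA factors act in mast cells and red blood cells.

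The genes with the highest levels or the largest differences in each group are shown first by the 250 bases before an annotated start, since members of a group were high in the same library. They are C1qb and C1qc for macrophages, Cpa3 and Cma1 for mast cells, and S100a8 and S100a9 for neutrophils. The sequences are RefSeq's, from build GRCm38.p6, each read along its gene's strand from 5′ to 3′. Capitals mark GAGGAA, the core letters bound by PU.1, or the letters AGATAA, which GATA factors bind, where the match is on the printed strand. A match of the first motif on the other strand is in capitals as TTCCTC. The windows are chr4:136886201-136886450 on the minus strand for C1qb, chr4:136892915-136893164 on the minus strand for C1qc, chr3:20242182-20242431 on the minus strand for Cpa3, chr14:55944676-55944925 on the minus strand for Cma1, chr3:90668821-90669070 on the plus strand for S100a8 and chr3:90695722-90695971 on the minus strand for S100a9. The C1qc and Cpa3 windows belong to starts that lie slightly inside the full span of their genes.
C1qb: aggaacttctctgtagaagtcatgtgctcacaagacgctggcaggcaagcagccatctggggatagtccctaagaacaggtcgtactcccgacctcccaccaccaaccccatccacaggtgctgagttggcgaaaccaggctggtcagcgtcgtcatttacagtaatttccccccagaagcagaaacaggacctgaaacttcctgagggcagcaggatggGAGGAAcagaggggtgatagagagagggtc
C1qc: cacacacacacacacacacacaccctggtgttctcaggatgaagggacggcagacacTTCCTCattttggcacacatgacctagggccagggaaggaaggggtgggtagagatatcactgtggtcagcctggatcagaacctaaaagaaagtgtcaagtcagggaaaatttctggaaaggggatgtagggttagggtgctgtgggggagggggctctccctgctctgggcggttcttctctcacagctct
Cpa3: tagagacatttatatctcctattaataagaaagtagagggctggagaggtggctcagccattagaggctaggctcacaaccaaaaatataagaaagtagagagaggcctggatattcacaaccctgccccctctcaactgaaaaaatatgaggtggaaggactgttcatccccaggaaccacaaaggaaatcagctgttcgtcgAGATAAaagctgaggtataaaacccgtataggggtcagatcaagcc
Cma1: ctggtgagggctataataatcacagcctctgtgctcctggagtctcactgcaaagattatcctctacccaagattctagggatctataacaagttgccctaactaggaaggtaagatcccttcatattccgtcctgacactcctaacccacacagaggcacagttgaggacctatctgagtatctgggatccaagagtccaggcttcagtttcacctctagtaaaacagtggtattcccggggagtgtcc
S100a8: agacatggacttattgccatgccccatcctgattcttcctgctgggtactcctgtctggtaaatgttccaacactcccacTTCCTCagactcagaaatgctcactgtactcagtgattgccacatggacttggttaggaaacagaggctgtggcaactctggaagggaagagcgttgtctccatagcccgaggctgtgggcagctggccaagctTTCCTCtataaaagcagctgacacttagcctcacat
S100a9: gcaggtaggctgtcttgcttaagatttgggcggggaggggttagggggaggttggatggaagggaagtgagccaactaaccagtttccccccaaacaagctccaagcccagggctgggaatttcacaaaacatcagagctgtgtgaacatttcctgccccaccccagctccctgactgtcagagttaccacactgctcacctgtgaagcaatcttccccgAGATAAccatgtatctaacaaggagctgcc
GAGGAA begins 30 bases before the C1qb start, and on the other strand its match begins 193 bases before the C1qc start. In S100a8 it lies on the other strand at 170 and 36 bases before the start. AGATAA begins 46 bases before the Cpa3 start and 30 bases before the S100a9 start, and the Cma1 window holds neither motif.

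Promoter windows were matched for 29 of the 36 genes, in 33 windows because some genes have more than 1 start. GAGGAA on either strand was found in 14 of 20 windows of the macrophage genes (13 of 17 genes), in 2 of 7 windows of the mast cell genes and in 3 of 6 windows of the neutrophil genes. Of all 32851 windows of this length in the table, 23.3% held it. AGATAA was found in 1 of 20 macrophage windows, 2 of 7 mast cell windows and 2 of 6 neutrophil windows, and in 10.0% of all windows. Some windows of 1 gene overlap, and the motifs do not overlap each other. These are matches of letters only and do not show that a factor binds.

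The libraries as wholes were alike in completeness, with 11924 to 12002 genes at 1 FPKM or more (fragments per kilobase of transcript, scaled to the mapped fragments of the library) and 6461 to 6751 genes listed at 0. FPKM hold no read counts, so depth is unknown and no counting interval can be given. Lgr5, the gate gene of the E14.5 sort, had 26.8 FPKM in Lgr5+ cells, 1.36 FPKM in Lgr5− cells and 3.48 FPKM in Sox9+ cells. The cartilage collagen gene Col2a1 had 2253, 1401 and 5304 FPKM in these libraries, above every macrophage, mast cell and neutrophil gene of the 36.

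Summed over their members, macrophage genes were highest in the Lgr5+ library, and mast cell and neutrophil genes were highest in the Lgr5− library. The 23 macrophage genes summed to 140.1 FPKM in Lgr5+ cells, 87.0 FPKM in Lgr5− cells and 25.1 FPKM in Sox9+ cells. The 7 mast cell genes summed to 9.53, 43.6 and 4.40 FPKM in the same libraries, and the 6 neutrophil genes to 0.97, 19.6 and 0.12 FPKM. The 36 genes together made up 0.0282% of the summed FPKM of the Lgr5+ library, 0.0275% of the Lgr5− library and 0.00498% of the Sox9+ library. Their total was nearly equal in the E14.5 libraries, at 150.6 FPKM in Lgr5+ and 150.2 FPKM in Lgr5− cells, and its makeup differed. In such bulk RNA, fewer cells of a type and less RNA per cell cannot be told apart.

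**Figure D1:**
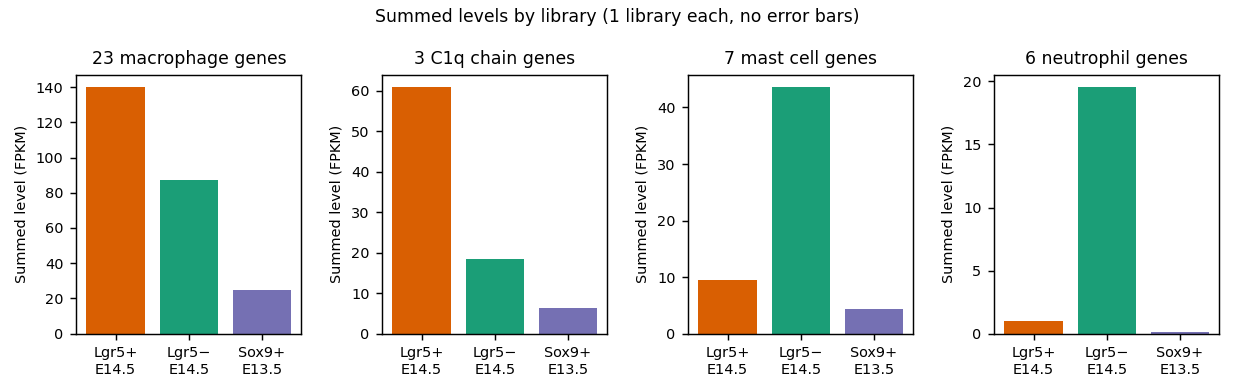
Bars give the summed FPKM of 23 macrophage genes, 3 C1q chain genes, 7 mast cell genes and 6 neutrophil genes in the Lgr5+, Lgr5− and Sox9+ libraries, each panel on its own axis from 0 and each bar 1 library without error. The macrophage and C1q sums are highest in Lgr5+ cells (140.1 and 60.97 FPKM), and the mast cell and neutrophil sums are highest in Lgr5− cells (43.6 and 19.6 FPKM).

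Differences are given as folds, meaning ratios of FPKM + 1, which understate the differences of low genes. Genes that reached 1 FPKM in either library of a pair counted as measured, and those were called higher or lower from 2-fold upward. No fold is given where a library lists the gene at 0. In the comparison of Lgr5+ with Lgr5− cells, 28 of the 36 genes were measured, of which 4 were higher in the Lgr5+ library, 8 were lower and 16 lay within 2-fold. Among all 12438 genes measured, 3.64% were higher and 1.89% lower. The 4 higher genes were all macrophage genes, and the 8 lower genes were 4 mast cell and 4 neutrophil genes. The neutrophil genes were measured only through the Lgr5− library, which fixed their direction.

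The genes for the C1q chains differed most among the macrophage genes. They lie together on chromosome 4 of GRCm38, with C1qa at 136895916 to 136898844, C1qc at 136889801 to 136892936 and C1qb at 136880126 to 136886200, and all are protein-coding. C1qb stood at 32.5 FPKM in Lgr5+ cells, 10.3 FPKM in Lgr5− cells and 2.75 FPKM in Sox9+ cells. C1qc had 21.6, 7.23 and 3.21 FPKM and C1qa had 6.91, 0.86 and 0.31 FPKM in these libraries. All 3 chains therefore had the same order of libraries, and C1qb in Lgr5+ cells lay above 88.4% of all listed genes.

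The C1q folds of Lgr5+ over Lgr5− cells were 4.25 for C1qa, 2.97 for C1qb and 2.74 for C1qc. C1qb was read at 1.51 times the level of C1qc in Lgr5+ cells and 1.42 times in Lgr5− cells, so these chains kept nearly the same proportion at E14.5, whereas the ratio was 0.857 in Sox9+ cells. C1qb over C1qa was less even, at 4.71, 11.95 and 8.87 in the Lgr5+, Lgr5− and Sox9+ libraries. The 3 chains made up 43.5% of the macrophage sum in Lgr5+ cells, 21.1% in Lgr5− cells and 25% in Sox9+ cells. Without them the other 20 macrophage genes summed to 79.1 FPKM in Lgr5+ cells and 68.6 FPKM in Lgr5− cells, a ratio of 1.15 against 1.61 for the whole list.

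Pf4, a chemokine gene of platelets that embryonic macrophages also express, was the remaining member that was higher, at 8.57 FPKM in Lgr5+ cells against 3.34 FPKM in Lgr5− cells (2.21-fold), with 1.69 FPKM in Sox9+ cells. Of 12 platelet genes, 3 were measured between the E14.5 libraries: Gp5, a platelet glycoprotein gene, was higher in Lgr5+ cells (1.64 FPKM against 0.29 FPKM, a call lost under median of ratios scaling, upper quartile scaling and a minimum of 5 FPKM), while Gp1bb and Thbs1, which other cells also express, lay within 2-fold. Ppbp, the neighbouring platelet chemokine gene, was at 0.04, 0.08 and 0 FPKM in the Lgr5+, Lgr5− and Sox9+ libraries, and Itga2b, the platelet integrin gene, at 0.57, 0.62 and 0.30 FPKM, and the part of platelets in the Pf4 level was not tested. Aif1, which encodes a calcium-binding protein of macrophages, stood at 3.25 FPKM in Lgr5+ cells and 1.30 FPKM in Lgr5− cells (1.85-fold) and was listed at 0 in Sox9+ cells.

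Csf1r, Tyrobp and Fcer1g differed little between the E14.5 libraries. Csf1r, the receptor for the growth factor that macrophages need, stood at 3.86 FPKM in Lgr5+ cells, 3.06 FPKM in Lgr5− cells and 0.31 FPKM in Sox9+ cells. Tyrobp, a signalling adaptor of myeloid receptors, stood at 10.2, 9.10 and 1.09 FPKM, and Fcer1g, the shared Fc receptor chain that mast cells also use, at 11.3, 7.88 and 1.64 FPKM. These genes were near-level at E14.5, with folds of 1.20, 1.11 and 1.39, and lower in Sox9+ cells. Tyrobp was read at 2.64, 2.97 and 3.52 times Csf1r in the Lgr5+, Lgr5− and Sox9+ libraries, so this pair kept its proportion more closely than the C1qb and C1qa pair.

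Emr1, which encodes the F4/80 antigen of mouse macrophages and is now named Adgre1, stood at 2.14 FPKM in Lgr5+ cells, 0.98 FPKM in Lgr5− cells and 0.45 FPKM in Sox9+ cells. Cx3cr1, the fractalkine receptor gene, had 2.06, 1.35 and 0.21 FPKM. Fcgr3, a low-affinity Fc receptor gene for IgG, had 1.88, 2.97 and 0.35 FPKM and so was higher in Lgr5− cells by less than 2-fold. Fcgr1, the high-affinity receptor gene, was low at 0.58 and 0.20 FPKM in the Lgr5+ and Lgr5− libraries and listed at 0 in Sox9+ cells. Spi1, read as Sfpi1, stood at 2.29, 2.41 and 0.29 FPKM, level between the E14.5 libraries.

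The scavenger receptors of tissue macrophages were near the bottom of the measured range. Mrc1, the mannose receptor gene, stood at 1.44 FPKM in Lgr5+ cells, 0.79 FPKM in Lgr5− cells and 0.41 FPKM in Sox9+ cells. Stab1, which endothelium also expresses, had 1.45, 1.06 and 0.49 FPKM, and Lyve1, a hyaluronan receptor of lymphatic vessels and some macrophages, had 0.25, 0.15 and 0.06 FPKM. Cd163, the haemoglobin scavenger receptor gene, was at 0.09 FPKM in Lgr5+ cells and listed at 0 in the Lgr5− and Sox9+ libraries. Ptprc, the CD45 antigen of all leukocytes, was also low at 0.43, 0.55 and 0.02 FPKM. Thus 4 of the 23 macrophage genes, Ptprc, Fcgr1, Lyve1 and Cd163, stayed under 1 FPKM in every library.

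The lysosomal and secreted proteins Lyz2, Ctss and F13a1 lay within 2-fold between the E14.5 libraries, unlike the C1q genes, which were higher in Lgr5+ cells. Lyz2, the macrophage and neutrophil lysozyme gene, was the macrophage gene with the largest difference the other way, at 7.48 FPKM in Lgr5+ cells, 13.7 FPKM in Lgr5− cells and 1.08 FPKM in Sox9+ cells, 1.73-fold lower in the Lgr5+ than in the Lgr5− library. Its reads may be shared with its near-identical neighbour Lyz1, so its level is uncertain. Ctss, a lysosomal protease gene, had 4.26, 3.93 and 0.53 FPKM, and F13a1, the coagulation factor XIII chain, had 2.54, 2.11 and 0.78 FPKM. Both had the same order of libraries as the C1q genes. Lyz2 over C1qb was 0.230 in Lgr5+ cells, 1.33 in Lgr5− cells and 0.393 in Sox9+ cells, the widest change of proportion among the pairs computed. Lyz2, the neutrophil genes and the red blood cell genes all had higher values in Lgr5− than in Lgr5+ cells (the last by their sum), and their part in each other's levels was not tested.

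Over the whole macrophage list, 19 genes were measured between the E14.5 libraries, 4 were higher in Lgr5+ cells and none lower, and the median log2 ratio was 0.38 against 0.08 over all measured genes. The ratio was above 0 in 16 of the 19 genes, against 59.4% of all measured genes. Among the 16 genes with 1 FPKM or more in both libraries, the plain FPKM ratio of Lgr5+ over Lgr5− ran from 0.546 for Lyz2 to 3.16 for C1qb, with a median of 1.31. The macrophage genes thus did not share 1 ratio.

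**Figure D2:**
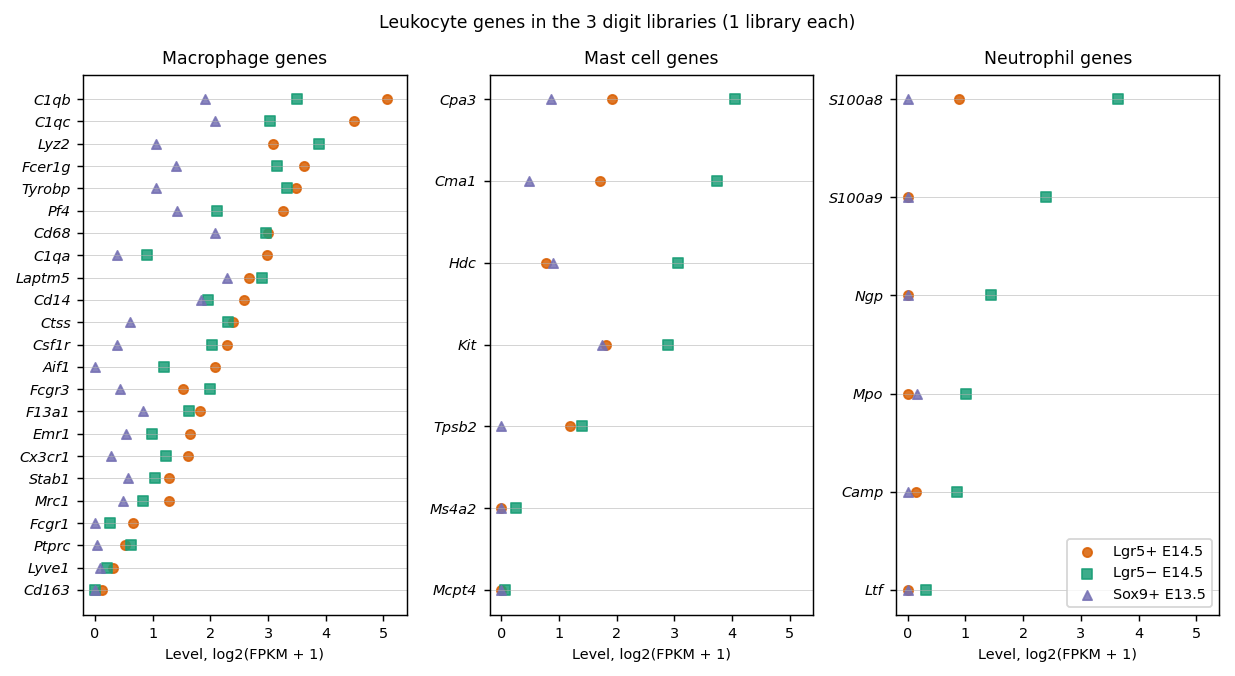
Each row is a gene and each symbol 1 library, with the level as log2(FPKM + 1) on the horizontal axis, for the macrophage, mast cell and neutrophil genes, ordered by their highest level. Sox9+ cells hold the lowest or an equally low level for each gene except Hdc and Mpo, C1qb and C1qc stand out in Lgr5+ cells (32.5 and 21.6 FPKM), and Cpa3, Cma1, Hdc and S100a8 stand out in Lgr5− cells (15.6, 12.4, 7.31 and 11.5 FPKM).

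Mast cell genes were lower in Lgr5+ than in Lgr5− cells. Cpa3, the granule carboxypeptidase of mast cells (chromosome 3, 20215616 to 20242209), stood at 2.79 FPKM in Lgr5+ cells, 15.6 FPKM in Lgr5− cells and 0.81 FPKM in Sox9+ cells. Cma1, the chymase of connective tissue mast cells (chromosome 14, 55941451 to 55944675), had 2.26, 12.4 and 0.39 FPKM. Hdc, which makes histamine from histidine (chromosome 2, 126593659 to 126624025), had 0.71, 7.31 and 0.85 FPKM. All 3 were high in the Lgr5− library alone, and the Lgr5+ library was 4.39-fold lower for Cpa3, 4.11-fold lower for Cma1 and 4.86-fold lower for Hdc.

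Cpa3 and Cma1 kept a steady proportion, with Cpa3 at 1.24 times Cma1 in Lgr5+ cells and 1.26 times in Lgr5− cells, against 2.08 times in Sox9+ cells, where both were under 1 FPKM. Tpsb2, a mast cell tryptase gene, did not follow them, at 1.27 FPKM in Lgr5+ cells and 1.65 FPKM in Lgr5− cells, and it was listed at 0 in Sox9+ cells. Tpsab1, a closely related tryptase gene that could share its reads, was at 0.21, 0.21 and 0.06 FPKM. Kit, the stem cell factor receptor gene of mast cells, melanocytes and blood progenitors, stood at 2.50, 6.38 and 2.35 FPKM and was 2.11-fold lower in Lgr5+ than in Lgr5− cells.

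Of the 5 measured mast cell genes, 4 were lower in Lgr5+ cells and none higher, with a median log2 ratio of −2.04 against 0.08 over all measured genes. The other 2 were at or near 0: Mcpt4, a chymase gene, stood at 0.05 FPKM and Ms4a2, the beta chain of the IgE receptor, at 0.20 FPKM in Lgr5− cells, and both were listed at 0 in the Lgr5+ and Sox9+ libraries. Of 9 melanocyte genes, which could share Kit, Sox10 was the 1 measured, at 5.88 FPKM in Lgr5+ cells, 2.76 FPKM in Lgr5− cells and 10.07 FPKM in Sox9+ cells. Sox10 also marks the glia of nerves. The 9 genes summed to 7.87, 4.88 and 13.2 FPKM in these libraries, and the 8 without Sox10 to 1.99, 2.12 and 3.15 FPKM, with Tyrp1 and Mlana at 0 in all 3. Without Kit, the mast cell genes still summed to 7.03 FPKM in Lgr5+ cells against 37.3 FPKM in Lgr5− cells.

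The other mast cell genes that were measured mostly did not have the order of these 7. Of 22 listed, 17 were under 1 FPKM in the E14.5 libraries. Of those 17, Hpgds alone was higher in Lgr5+ cells, at 0.53 FPKM against 0.24 FPKM in Lgr5− cells. The rest were equal or higher in Lgr5− cells, such as Alox5 at 0.83 FPKM against 0.13 FPKM in Lgr5+ cells. The 5 measured had a median log2 ratio of 0.34, with 4 of them above 0. Rescaling to a sum of 1000000 raised all values, so that 8 genes passed the minimum, and the median over those 8 was −0.32. Gata2, a transcription factor gene of mast cells and blood progenitors, stood at 10.6 FPKM in Lgr5+ cells, 7.85 FPKM in Lgr5− cells and 12.6 FPKM in Sox9+ cells. Slc18a2, the vesicle transporter gene for histamine and other amines, had 2.93, 2.50 and 3.39 FPKM, and Rab27b, a gene of granule secretion, had 1.37, 0.87 and 1.34 FPKM. Srgn was the 1 of the 5 that was 2-fold different. Srgn, the granule proteoglycan core protein of many blood cells, stood at 2.88 FPKM in Lgr5+ cells, 8.58 FPKM in Lgr5− cells and 0.45 FPKM in Sox9+ cells (2.47-fold lower in Lgr5+ than in Lgr5− cells). Fcer1a, the IgE-binding chain of the receptor, was listed at 0 in all 3 libraries, and Gata1 was at most 0.06 FPKM. Cd63, a granule membrane gene that most cells express, was at 898.7, 668.8 and 552.6 FPKM and so does not report on mast cells here.

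The 6 neutrophil genes were read almost only in the Lgr5− library. S100a8, a calcium-binding antimicrobial protein gene (chromosome 3, 90669071 to 90670034), stood at 0.86 FPKM in Lgr5+ cells and 11.5 FPKM in Lgr5− cells and was listed at 0 in Sox9+ cells. Its partner S100a9 (chromosome 3, 90692630 to 90695721) stood at 4.28 FPKM in Lgr5− cells and was listed at 0 in the Lgr5+ and Sox9+ libraries. S100a8 was 6.72-fold lower in Lgr5+ than in Lgr5− cells, the largest fold among those of the 36 that had a value above 0 in both E14.5 libraries.

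Granule genes of neutrophils were weaker than the S100 pair. Ngp, the neutrophilic granule protein, stood at 1.73 FPKM in Lgr5− cells and was listed at 0 in the Lgr5+ and Sox9+ libraries. Mpo, myeloperoxidase of the primary granules, stood at 1.01 FPKM in Lgr5− cells, was listed at 0 in Lgr5+ cells and was at 0.12 FPKM in Sox9+ cells. Camp, the cathelicidin gene, was at 0.11 FPKM in Lgr5+ cells and 0.80 FPKM in Lgr5− cells, and Ltf, lactoferrin, at 0.24 FPKM in Lgr5− cells alone. All 6 were above 0 in Lgr5− cells, against 2 in Lgr5+ cells and 1 in Sox9+ cells.

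All 4 measured neutrophil genes were lower in Lgr5+ than in Lgr5− cells. No median is given for them, because 3 of the 4 were listed at 0 in Lgr5+ cells and their ratio is set by the added 1. Further neutrophil genes were mostly not read, with 18 of 24 under 1 FPKM in both E14.5 libraries and Ctsg, Chi3l3 and Retnlg listed at 0 in all 3. Stfa1, a stefin gene of neutrophils, was the 1 member of that list at least 2-fold different, at 0.97 FPKM in Lgr5+ cells and 3.76 FPKM in Lgr5− cells. Elane, the neutrophil elastase, was at 0.41 FPKM in Lgr5− cells and 0 elsewhere. Levels this low in a library of unknown depth can rest on few fragments.

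**Figure D3:**
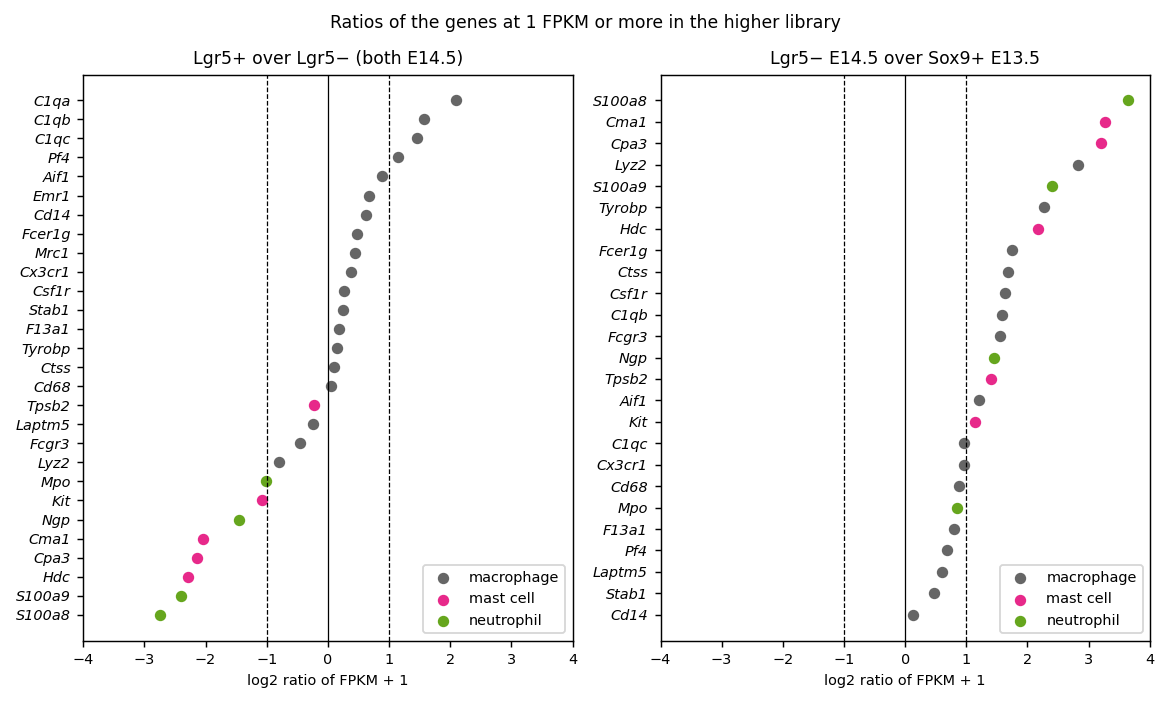
Points give the log2 ratio of FPKM + 1 for each measured gene, coloured by cell type, for Lgr5+ over Lgr5− cells on the left and Lgr5− over Sox9+ cells on the right, with dashed lines at 2-fold. On the left the C1q genes and Pf4 lie above 2-fold and 4 mast cell and 4 neutrophil genes lie below it, and on the right no gene lies below 0. A measured gene under 1 FPKM in Sox9+ cells could only lie above 0 on the right. Points of genes listed at 0 in 1 library, such as S100a9 and Ngp, are placed by the added 1.

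Red blood cell genes were also highest in the Lgr5− library. The 16 genes of that list found in the files summed to 204.4 FPKM in Lgr5+ cells, 5558 FPKM in Lgr5− cells and 188.0 FPKM in Sox9+ cells, of which haemoglobin genes took 192.9, 5523 and 175.1 FPKM. Alas2, the haem synthesis enzyme of red blood cells, stood at 1.16, 25.4 and 0.86 FPKM. Of 13 measured, 10 were lower in Lgr5+ than in Lgr5− cells. These genes thus moved with the mast cell and neutrophil genes and not with C1q, and their part in those results was not tested. When FPKM were rescaled to the sum without haemoglobin genes and the ribosomal RNA precursor Rn45s, 4 of the 36 genes were still higher and 8 lower in Lgr5+ than in Lgr5− cells. Over all genes the shares were then 3.39% higher and 2.1% lower.

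Of 14 genes of monocytes and antigen-presenting cells, 7 were measured between the E14.5 libraries, 3 were lower in Lgr5+ cells, none was higher and 4 lay within 2-fold, with a median log2 ratio of −0.44. Plac8, a gene of monocytes and other blood cells, stood at 0.17 FPKM in Lgr5+ cells, 5.31 FPKM in Lgr5− cells and 0.34 FPKM in Sox9+ cells. Cd74, the chain that escorts MHC class II molecules, had 4.52, 12.7 and 1.82 FPKM, and H2-Aa, an MHC class II chain gene, had 0.39, 2.43 and 0.12 FPKM. The MHC class II genes did not move together: H2-Ab1 was level, at 2.80, 2.77 and 3.21 FPKM in the Lgr5+, Lgr5− and Sox9+ libraries. Csf2ra, a receptor gene for the growth factor GM-CSF, was also near-level at 14.8, 13.9 and 12.8 FPKM. Ccr2, the chemokine receptor gene of monocytes, was at 0.14 and 0.64 FPKM in the Lgr5+ and Lgr5− libraries and listed at 0 in Sox9+ cells.

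Of 24 genes shared by most blood cells, 16 were measured between the E14.5 libraries, 2 were lower in Lgr5+ cells, none was higher and 14 lay within 2-fold. Their median log2 ratio was −0.52, against 0.08 over all measured genes, and 12 of the 16 had a ratio below 0. Rescaling to a sum of 1000000 raised all values, so that 21 genes passed the minimum, and the median over those 21 was −0.07. Cd52, a surface protein gene of lymphocytes and myeloid cells, was 2.55-fold lower in Lgr5+ cells, at 2.87 FPKM against 8.86 FPKM in Lgr5− cells, and was listed at 0 in Sox9+ cells.

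Further macrophage genes outside the 36 lay mostly within 2-fold at E14.5. Of 39 listed, 22 were measured between the E14.5 libraries, 3 were higher in Lgr5+ cells and 1 was lower, with a median log2 ratio of 0.39. Trem2, a receptor gene of tissue macrophages, stood at 1.85 FPKM in Lgr5+ cells, 0.78 FPKM in Lgr5− cells and 0 in Sox9+ cells, and Ms4a7 at 1.78, 0.44 and 0.12 FPKM. Ccl12, a monocyte chemokine gene, was higher in Lgr5+ cells, at 2.71 FPKM against 0.81 FPKM in Lgr5− cells, and was listed at 0 in Sox9+ cells. The other two higher genes were Trf, the transferrin gene, at 6.43, 2.65 and 1.63 FPKM in the Lgr5+, Lgr5− and Sox9+ libraries, and Tlr2, a receptor gene for bacterial lipoproteins, at 10.4, 4.70 and 10.1 FPKM. All 3 lay close to 2-fold: none was called under median of ratios or upper quartile scaling, and 1 was called, Ccl12, when FPKM were rescaled without haemoglobin genes and Rn45s.

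**Figure D4:**
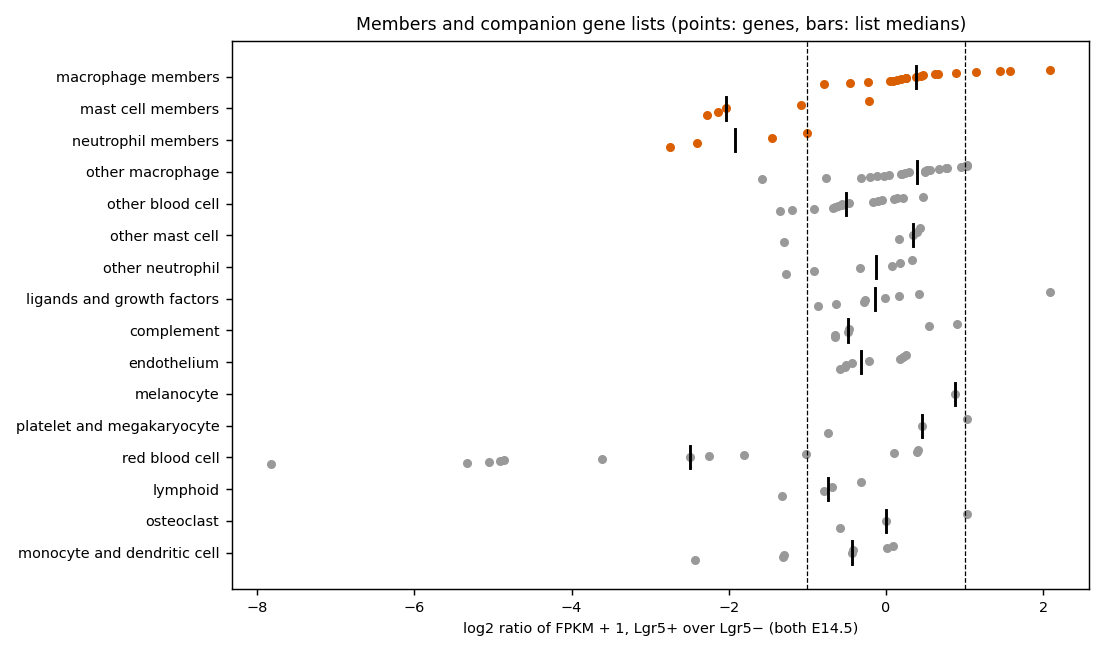
Each point is a measured gene, placed by its log2 ratio of FPKM + 1 in Lgr5+ over Lgr5− cells, with black bars at list medians and dashed lines at 2-fold, for the macrophage, mast cell and neutrophil genes (orange) and 13 other lists (grey). The mast cell, neutrophil and red blood cell genes lie to the left, while macrophage genes centre slightly right of 0 at a median of 0.38, and the neutrophil bar depends on the added 1 because 3 of its 4 genes are listed at 0 in Lgr5+ cells.

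The 36 genes were mostly higher in both E14.5 libraries than in the Sox9+ library of E13.5. In Lgr5+ over Sox9+ cells, 23 of the 36 genes were measured, 16 were higher (against 4.33% of all 12492 genes measured) and none was lower (against 3.96%). In Lgr5− over Sox9+ cells, 25 were measured, 16 were higher (against 3.08% of 12482) and none was lower (against 4.94%). Only 10 of the 36 genes reached 1 FPKM in Sox9+ cells. The other measured genes passed the minimum through the E14.5 library alone, which fixed their direction, so these counts were partly set by the minimum. These comparisons share the Sox9+ library, and they differ in day, reporter line and gate at once, so which of these moved with the genes cannot be told apart. None of the 28 genes at 1 FPKM or more in any library was highest in Sox9+ cells, against 34.3% of such genes overall.

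The wider lists differed less from Sox9+ cells. Of the other macrophage genes, 10 of 22 measured were higher in Lgr5+ than in Sox9+ cells and 4 of 17 in Lgr5− than in Sox9+ cells, with none lower in either. Of the genes shared by most blood cells, 1 of 13 measured was higher and 1 lower in Lgr5+ than in Sox9+ cells, and 6 of 14 were higher and 1 lower in Lgr5− than in Sox9+ cells. The sum of the other neutrophil genes was highest in Sox9+ cells, at 34.8 FPKM in Lgr5+ cells, 42.3 FPKM in Lgr5− cells and 49.99 FPKM in Sox9+ cells. Anxa1 was the largest part of that sum, at 15.1, 19.3 and 27.1 FPKM, so the sum does not stand for the list. Of the 7 that reached 1 FPKM in any library, 5 were highest in Sox9+ cells. Prtn3 was highest in Lgr5+ cells, and Stfa1 was highest in Lgr5− cells (3.76 FPKM) and listed at 0 in Sox9+ cells.

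Macrophage genes made up 13 of the 16 genes higher in Lgr5+ than in Sox9+ cells. Their median log2 ratio was 1.78 over 19 measured genes, against 0.06 over all measured genes, and the largest folds were 8.94 for C1qb, 6.04 for C1qa, 5.36 for C1qc, 5.34 for Tyrobp and 4.66 for Fcer1g. The 6 macrophage genes within 2-fold were Cd68, Mrc1, Laptm5, Cd14, Stab1 and F13a1. In Lgr5− over Sox9+ cells the macrophage median was 1.08 over 16 genes, with Lyz2 leading at 7.07-fold, Tyrobp at 4.83-fold and C1qb at 3.01-fold. Only 9 macrophage genes had 1 FPKM or more in both libraries of either comparison. Their plain FPKM ratios ran from 1.37 to 11.8 for Lgr5+ over Sox9+ cells and from 1.13 to 12.7 for Lgr5− over Sox9+ cells. The direction of the other measured macrophage genes was fixed by the minimum.

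Laptm5, Cd68 and Cd14 lay within 2-fold in each pair of libraries. Laptm5, a lysosomal membrane protein gene of blood cells, stood at 5.35 FPKM in Lgr5+ cells, 6.48 FPKM in Lgr5− cells and 3.90 FPKM in Sox9+ cells, where it was the highest of the 36. Cd68, a lysosomal glycoprotein gene, had 7.02, 6.78 and 3.22 FPKM, and Cd14, the co-receptor for bacterial lipopolysaccharide, had 4.99, 2.89 and 2.56 FPKM. In Sox9+ cells these 3 were high beside Csf1r (0.31 FPKM), Ptprc (0.02 FPKM) and Aif1 (listed at 0), which define macrophages or leukocytes more strictly. Only 10 of the 36 genes reached 1 FPKM in that library.

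Mast cell genes were also higher at E14.5 than in Sox9+ cells. In Lgr5− over Sox9+ cells all 5 measured were higher, with folds of 9.65 for Cma1, 9.19 for Cpa3, 4.49 for Hdc and 2.20 for Kit, and Tpsb2 was listed at 0 in Sox9+ cells. In Lgr5+ over Sox9+ cells, 3 of 4 measured were higher, namely Cma1 (2.35-fold), Cpa3 (2.09-fold) and Tpsb2, while Kit was level (1.04-fold). Of the mast cell genes only Kit reached 1 FPKM in Sox9+ cells, so the minimum fixed the direction of the other measured ones. None of the 6 neutrophil genes reached 1 FPKM in Lgr5+ or Sox9+ cells, so that comparison has none measured. Against Sox9+ cells, S100a8, S100a9 and Ngp of the Lgr5− library counted as higher, and all 3 were listed at 0 in Sox9+ cells.

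Among growth factors and chemokines that these cells need or follow, Csf1, Cx3cl1 and Ccl2 did not have the order of the leukocyte genes. Csf1, the main ligand of Csf1r, was highest in Sox9+ cells, at 2.96 FPKM in Lgr5+ cells, 3.75 FPKM in Lgr5− cells and 6.27 FPKM in Sox9+ cells, and Il34, its other ligand, was at most 0.44 FPKM. Kitl, the ligand of Kit, stood at 2.06, 2.73 and 1.65 FPKM, in the order of Kit but within 2-fold in every pair. Cxcl12, the highest gene of this list, had the same order at 31.59, 58.35 and 30.23 FPKM, also within 2-fold in every pair. Cx3cl1, the ligand of Cx3cr1, had 1.72, 1.03 and 4.02 FPKM. Ccl2, a chemokine that attracts monocytes, was the 1 of 8 measured ligands higher in Lgr5+ than in Lgr5− cells, at 16.04 FPKM against 3 FPKM (4.26-fold), with 12.4 FPKM in Sox9+ cells.

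Most other complement genes did not follow C1q. Of 13 listed, 6 were measured between the E14.5 libraries and all lay within 2-fold, with a median log2 ratio of −0.48. C1ra and C1s, proteases that join C1q in the first complement complex, stood at 0.21 and 0.38 FPKM in Lgr5+ cells, 0.70 and 1.17 FPKM in Lgr5− cells, and 0.36 and 0.29 FPKM in Sox9+ cells. C5ar1, a complement receptor gene of myeloid cells, was in the order of the C1q genes at 1.89, 0.55 and 0.22 FPKM, a 1.86-fold difference between the E14.5 libraries. C3ar1, another complement receptor gene, had that order too, at 1.31, 0.58 and 0.21 FPKM (1.46-fold). The other 4 measured genes were higher in Lgr5− than in Lgr5+ cells.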

How the data were processed

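The deposited files give 1 FPKM value per gene symbol and library, computed by the authors to 2 decimals. The submitters' processing notes name HISAT2 and the builds mm10 and GRCm38. Neither the program behind the FPKM nor the annotation is given in the sources used here. Per the labels' protocols, each library started from 10 ng of RNA and used a SMARTer kit for low input, whose amplification raises the noise of weak genes. FPKM are shares of a library, so a few abundant RNAs can shift all other genes.

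The 37 members were read by symbol. A log2 ratio was taken of FPKM + 1 in 3 comparisons, where a gene at 1 FPKM or more in either library counted as measured and 2-fold counted as different. No test was possible without replicates. The members, the companion lists and their naming rule (the 4 highest genes of a list and any gene 2-fold different could be named) were chosen with earlier results of these data known. Genes named outside that rule, mostly at or near 0, were chosen after their values were seen, and some genes of these lists are not reported here. The fold calls were tested on simulated data with an assumed depth, counting noise alone and changes only in genes at 5 FPKM or more. That test does not cover weaker genes or amplification noise. Alternatives covered the added constant, the minimum level and 4 scalings. Promoters came from RefSeq tables (GRCm38.p6) and were searched in Python 3.11.15 with pandas 2.3.3.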

Additional observations from a re-analysis of the deposited data

How the results depend on the processing

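No paired analysis was possible because each group has 1 library, and no replicate could be left out. The calls between libraries depended on the minimum level more than on anything else tried. With a minimum of 5 FPKM, 5 genes were lower and 4 higher in Lgr5+ than in Lgr5− cells, 7 were higher in Lgr5+ than in Sox9+ cells and 9 were higher in Lgr5− than in Sox9+ cells, because fewer genes (14, 9 and 12) were then measured. Each of the 4 higher and 8 lower genes of Lgr5+ over Lgr5−, and each of the 16 higher genes of either comparison with Sox9+ cells, kept its call under all 4 scalings. Added constants of 0.1 and 0.5 in place of 1 gave 6 and 5 higher genes and 8 lower genes each between the E14.5 libraries. Rescaling to a sum of 1000000 moved the median log2 ratio of all genes to 0.21 in Lgr5+ over Sox9+ cells and 0.11 in Lgr5− over Sox9+ cells, from 0.06 and −0.01 as deposited, and gave 22 higher genes in each. Rescaling to the sum without haemoglobin genes and Rn45s moved these medians to 0.14 and 0.11 and gave 17 and 18 higher genes. No called gene changed direction under any alternative run. The next choices were made after seeing the data. Reading Spi1 from its older symbol gave 17 genes higher than in Sox9+ cells in either E14.5 library. Leaving out Kit, Lyve1, Stab1, Cd14, Cd68 and Laptm5, which other cell types also express, left 4 higher and 7 lower genes between the E14.5 libraries. These were of 23 measured, against 3.64% higher and 1.89% lower over all genes. Depth is unknown, so values under 1 FPKM may rest on few fragments.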

Other observations

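Osteoclasts are multinucleated relatives of macrophages that resorb bone and calcified cartilage, and their genes were read unevenly. Dcstamp, the fusion gene of osteoclasts, was listed at 0 in all 3 libraries, and Calcr, the calcitonin receptor gene, stood at 0.09 FPKM in Lgr5+ cells, 0.07 FPKM in Lgr5− cells and 0.31 FPKM in Sox9+ cells. Of 10 osteoclast genes, 3 were measured between the E14.5 libraries. Acp5, the tartrate-resistant acid phosphatase gene that marks osteoclasts, was at 1.94 FPKM in Lgr5+ cells, 1.93 FPKM in Lgr5− cells and 3.05 FPKM in Sox9+ cells. Nfatc1, a transcription factor gene that osteoclasts need, was the 1 higher gene, at 80.8 FPKM in Lgr5+ cells and 39.2 FPKM in Lgr5− cells (2.03-fold), with 52.5 FPKM in Sox9+ cells, and it fell short of 2-fold under 3 of the 4 scalings. Ctsk, the collagen-degrading protease gene of osteoclasts and some fibroblasts, stood at 13.2, 20.3 and 6.10 FPKM in the Lgr5+, Lgr5− and Sox9+ libraries.

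Lymphocyte genes were nearly absent from the readout, with 11 of 15 under 1 FPKM in both E14.5 libraries and Cd3e, Rag2, Ncr1 and Ms4a1 listed at 0 in all 3. Nkg7, a granule gene of cytotoxic cells and of some myeloid cells, was the 1 gene at least 2-fold different between the E14.5 libraries, at 0.06 FPKM in Lgr5+ cells, 1.66 FPKM in Lgr5− cells and 0.32 FPKM in Sox9+ cells. Cd79a, a chain of the B cell receptor, had 0.85, 2.19 and 0.30 FPKM, and it and Nkg7 were the 2 lymphocyte genes called higher in Lgr5− than in Sox9+ cells. Endothelial genes stayed within 2-fold in every pair, and the 12 listed summed to 12.7 FPKM in Lgr5+ cells, 16.2 FPKM in Lgr5− cells and 7.36 FPKM in Sox9+ cells.

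Mcpt8, a protease gene of basophils, was at 0.87 FPKM in Lgr5− cells and listed at 0 in the other libraries. Prtn3, a serine protease gene of neutrophil granules, was above 3 FPKM in all 3 libraries, at 7.18, 6.23 and 3.52 FPKM, including libraries where Elane and Mpo were at or near 0.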
